A study of Mus musculus with 25 samples.

Results

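The Reg genes encode small secreted C-type lectins, and 7 of the 17007 genes in the deposited count tables carried the symbols Reg1, Reg2, Reg3a, Reg3b, Reg3d, Reg3g and Reg4. They were taken by symbol alone. The series holds 25 libraries of polyadenylated RNA from mouse duodenum, in 5 groups. Male C57BL/6N mice (wild type, WT) or Aldh2KI mice (KI), whose gene for mitochondrial aldehyde dehydrogenase carries a knock-in, entered the diets at 8 weeks of age and stayed on them for 8 weeks. WT_Con (n = 4) and KI_Con (n = 4) had the control diet. WT_Half (n = 7) and KI_Half (n = 6) had a diet with 2.5% ethanol and were gavaged with ethanol at 2 g/kg on 2 occasions per week, and WT_Full (n = 4) had 5% ethanol with gavages of 4 g/kg. Duodenum of the ethanol groups was taken 9 h after a final gavage given as 5 g/kg. The labels do not state if the control groups were gavaged, if the final dose was the same in WT_Half and KI_Half, or which change the knock-in carries, and no KI group on the stronger regimen was analysed here.

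Reg3b and Reg3g are bactericidal lectins that enterocytes and Paneth cells release onto the mucosal surface, where Reg3g is known to keep bacteria at a distance from the epithelium. Their transcription in the gut is known to rise with microbial contact, through MyD88 and through interleukin 22 acting on STAT3. Reg1 and Reg2 were first described in the pancreas, where acinar cells secrete them, and Reg4 is known from enteroendocrine and other secretory cells of the intestine.

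Library totals ran from 24.6 to 44.8 M counts, with a median of 32.0 M. The enterocyte transcript Alpi was present in every group (5568 to 12159 CPM, counts per M counts after scaling by the trimmed mean of M values), as was the duodenal transcription factor Gata4 (194 to 329 CPM). Aldh2 transcript was detected in all groups (293 to 640 CPM), and since a knock-in can leave the transcript in place, these levels do not check the genotype. Transcripts of the Brunner glands, the mucous glands of the duodenal wall, differed widely between libraries of one group (a summed level of 113 to 68589 CPM in WT_Con). The highest, WT_Con replicate 3, also held 15508 CPM of stomach markers, beside 3.26 to 529 CPM in the other WT_Con libraries. Gkn1, Gkn2 and Pgc were counted in both lists. Nothing in the labels names the animal behind a library, so each p-value measures only how far the samples of a group lie apart, which may be technical.

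In the GENCODE M21 annotation of GRCm38, 6 of the 7 genes lie side by side on chromosome 6 within 98.2 kb, with no other annotated gene between them. Their order is Reg3b (chr6:78370657-78373466, plus strand), Reg3d (chr6:78375874-78378865, minus), Reg3a (chr6:78380709-78383827, plus), Reg2 (chr6:78395623-78408106, plus), Reg1 (chr6:78422711-78428667, plus) and Reg3g (chr6:78466269-78468872, minus). Reg4 lies apart, at chr3:98222156-98236748 on the plus strand. All 7 are protein-coding and none overlaps another annotated gene. The transcripts of Reg3b and Reg3g share an identical run of at most 35 bases and no other pair shares more than 24, so no stretch of 50 bases occurs in 2 members and reads of that length or longer could be told apart.

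The promoters below, from RefSeq on GRCm38.p6, are those of the pair that moved together (Reg3b and Reg3g) and of the abundant Reg1, which was not called in any comparison. Each runs 5′ to 3′ on the gene's own strand, from 250 bases before the start site to 50 bases after it. Reg3b is chr6:78370635-78370934 on the plus strand, Reg3g is chr6:78468825-78469124 on the minus strand, and Reg1 is chr6:78425733-78426032 on the plus strand, where the RefSeq start lies inside the GENCODE gene. Capitals mark matches, on either strand, to the STAT motif TTCNNNGAA, to the E-box CACCTG and to the TATA box TATAAA, 3 motifs chosen after some of the promoters had been seen.
Reg3b: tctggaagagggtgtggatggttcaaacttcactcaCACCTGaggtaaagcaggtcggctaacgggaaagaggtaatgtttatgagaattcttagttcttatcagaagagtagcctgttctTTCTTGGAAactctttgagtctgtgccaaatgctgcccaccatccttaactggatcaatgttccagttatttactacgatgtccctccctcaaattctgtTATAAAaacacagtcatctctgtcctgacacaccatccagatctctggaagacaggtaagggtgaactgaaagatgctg
Reg3g: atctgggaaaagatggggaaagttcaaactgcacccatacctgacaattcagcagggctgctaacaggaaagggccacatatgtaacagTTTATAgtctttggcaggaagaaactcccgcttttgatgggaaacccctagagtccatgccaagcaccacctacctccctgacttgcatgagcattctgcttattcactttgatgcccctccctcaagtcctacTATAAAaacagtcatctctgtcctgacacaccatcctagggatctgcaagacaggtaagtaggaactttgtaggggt
Reg1: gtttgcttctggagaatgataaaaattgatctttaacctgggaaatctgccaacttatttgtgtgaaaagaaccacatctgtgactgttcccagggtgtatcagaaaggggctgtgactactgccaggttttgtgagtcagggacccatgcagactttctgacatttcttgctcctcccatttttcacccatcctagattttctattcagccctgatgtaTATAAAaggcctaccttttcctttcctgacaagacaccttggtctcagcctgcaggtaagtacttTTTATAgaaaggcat
Counted from the start site, the TATA box began at −29 in Reg3b, −27 in Reg3g and −30 in Reg1, and was also found in the promoter of Reg2, beside 13.6% of all 32851 mouse promoters of this length. The STAT motif began at −129 in Reg3b and −238 in Reg3d, and these letters were not found in the windows of the other 5 members (8.30% of all promoters). The E-box was found in Reg2, Reg3a, Reg3b, Reg3d and Reg4 (20.2% of all promoters). None of the matches overlapped another, and a match describes letters only.

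Reg3b was the member that differed most between libraries. In the KI_Con libraries its level was 116, 168, 47.6 and 69.8 CPM, and the 6 KI_Half libraries ran from 179 to 4073 CPM with a median of 2197 CPM. The lowest KI_Half library was thus 1.07 times the highest KI_Con library, so the groups did not overlap, and 4 of the 6 were at 1746 CPM or above while replicates 6 and 7 (528 and 179 CPM) stayed far lower. Among the WT groups, WT_Con held 15.7, 43.1, 352 and 481 CPM and WT_Full 87.4, 284, 722 and 155 CPM. The 7 WT_Half libraries ran from 80.5 to 3992 CPM with a median of 235 CPM, and their top value belonged to replicate 6 alone, the next being 667 CPM. Each WT group overlapped every other.

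Reg3g, which binds the peptidoglycan of Gram-positive bacteria, followed the same libraries. Its level was 81.7, 108, 44.8 and 61.8 CPM in KI_Con and ran from 204 to 2694 CPM, with a median of 960 CPM, in KI_Half, where the lowest library was 1.89 times the highest KI_Con library. WT_Con held 45.1, 72.9, 211 and 307 CPM, WT_Full 99.1, 277, 460 and 344 CPM, and WT_Half from 64.4 to 2068 CPM with a median of 107 CPM. Again the top WT_Half value was replicate 6, and the low KI_Half values were replicates 6 and 7 (204 and 222 CPM).

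**Figure D1:**
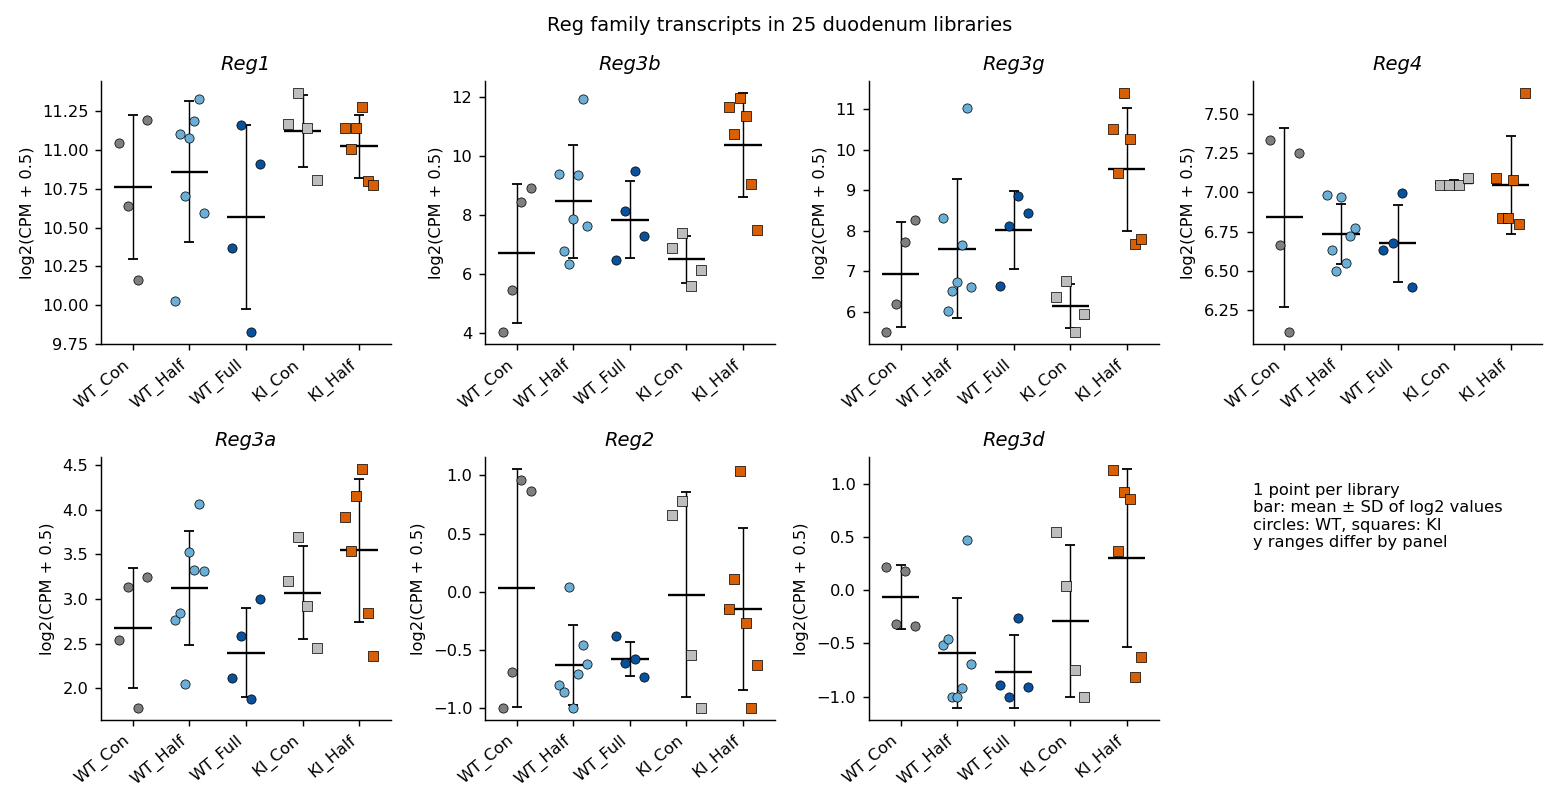
Level of each Reg transcript as log2(CPM + 0.5) in every library, by group, with the mean and SD of the log2 values; y ranges differ between panels. Reg3b and Reg3g in KI_Half lie above all KI_Con libraries, WT_Half replicate 6 stands apart at 3992 and 2068 CPM, and in Reg1 and Reg4 the 2 KI groups overlap.

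With the knock-in, the ethanol regimen of KI_Half was accompanied by a rise of both lectins. Against KI_Con, edgeR's quasi-likelihood test gave a log2 fold change of 4.38 ± 0.83 (SE) for Reg3b (adjusted p = 0.0025) and of 3.88 ± 0.74 for Reg3g (adjusted p = 0.00261), and the group means differed 20.6-fold and 14.6-fold. In whole tissue, more cells of a type and more RNA per cell cannot be told apart. Of the 7 members, these 2 were higher and none was lower, in a comparison where 37.9% of the 16944 genes tested were called and 20.0% of the genes tested were called as higher. Levels of all KI_Half libraries above all KI_Con libraries were seen for 2 of the 7 members and for 13.4% of all genes. Both calls held in every alternative run, at a log2 fold change of 4.07 to 5.14 for Reg3b and 3.38 to 4.35 for Reg3g, with an adjusted p of at most 0.0345. Among these runs, a replicate block kept 3 libraries per group and left out KI_Half replicates 5, 6 and 7.

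The remaining members did not pass the test in that comparison. Reg1 differed by −0.09 ± 0.14 on the log2 scale (adjusted p = 0.628, edgeR), Reg4 by 0.03 ± 0.16 (adjusted p = 0.909) and Reg3a by 0.61 ± 0.40 (adjusted p = 0.253). The estimates for the scarce Reg2 (−0.27 ± 0.97, adjusted p = 0.847) and Reg3d (1.20 ± 0.94, adjusted p = 0.337) were wide.

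In WT mice no Reg gene was called on either regimen. For WT_Half against WT_Con, edgeR tested 6 members and called 0, beside 1.47% of all genes, with 0 members at an unadjusted p under 0.05 and 0 called by DESeq2 or limma-voom. Reg3b stood 1.94 ± 1.19 higher on the log2 scale (adjusted p = 0.357) and Reg3g 1.41 ± 1.00 higher (adjusted p = 0.426), values that rested on 1 library: without WT_Half replicate 6 they were 0.55 (adjusted p = 0.736) and −0.11 (adjusted p = 0.922). For WT_Full against WT_Con, edgeR called 0 of 5 members tested, again with 0 at an unadjusted p under 0.05 and 0 by DESeq2 or limma-voom, where 0.00592% of all genes were called. Reg3g was 0.90 ± 0.62 higher (adjusted p = 0.459) and Reg3b 0.51 ± 0.99 higher (adjusted p = 0.808), and Reg3b was −0.34 without WT_Full replicate 3. Over all alternatives Reg3g ran from 0.59 to 2.24 and Reg3b from −0.34 to 2.89. In the authors' deposited table of this comparison, 11.5% of genes were under an adjusted p of 0.05 and 0 of the 7 members, with a log2 fold change of 0.89 for Reg3g (adjusted p = 0.585) and 0.49 for Reg3b (adjusted p = 0.834).

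Between the 2 regimens in WT mice no member passed the test. For WT_Full against WT_Half, edgeR called 0 of 5 members and 0% of all genes, and DESeq2 and limma-voom called 0 members. Reg3a alone had an unadjusted p under 0.05, at −0.83 ± 0.37 on the log2 scale (edgeR, adjusted p = 1.00). Reg3b was −1.41 ± 1.04 and Reg3g −0.49 ± 0.92 (both adjusted p = 1.00), and without WT_Half replicate 6 these became −0.02 and 1.03.

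Between genotypes on the same regimen, Reg3b and Reg3g were higher on average in KI_Half than in WT_Half, by 1.28 ± 0.88 and 1.36 ± 0.85 on the log2 scale, and neither passed the test (adjusted p = 0.507 and 0.464). Here edgeR called 0 of 5 members and 0% of all genes, and DESeq2 and limma-voom called 0 members. Without WT_Half replicate 6, the values were 2.69 ± 0.72 (unadjusted p = 0.00214, adjusted p = 0.363) for Reg3b and 2.90 ± 0.62 (unadjusted p = 0.000365, adjusted p = 0.355) for Reg3g in edgeR. Over all alternatives Reg3b ran from 0.98 to 2.69 and Reg3g from 0.85 to 2.90. Reg4 was 0.34 ± 0.14 higher in KI_Half, the 1 member with an unadjusted p under 0.05 in edgeR (adjusted p = 0.310), and 0.19 ± 0.10 higher without KI_Half replicate 7. The authors' deposited table gave 1.29 for Reg3b (adjusted p = 0.518), 1.36 for Reg3g (adjusted p = 0.36) and 0.34 for Reg4 (adjusted p = 0.329), with 0 of 7 members and 1.24% of all genes under 0.05.

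On the control diet, Reg3b was −1.17 ± 0.89 and Reg3g −1.12 ± 0.55 on the log2 scale in KI_Con against WT_Con (adjusted p = 0.644 and 0.518). edgeR called 0 of 7 members and 0% of all genes, 0 members had an unadjusted p under 0.05, and DESeq2 and limma-voom called 0. Without WT_Con replicate 1, the library with the least Reg3b, Reg3g was −1.43 (unadjusted p = 0.0129, adjusted p = 0.265, edgeR).

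The difference between genotypes in the response to the WT_Half and KI_Half regimen was tested directly as an interaction over 21 libraries. The response was larger in KI by 2.45 ± 1.43 on the log2 scale for Reg3b (adjusted p = 0.465) and by 2.47 ± 1.25 for Reg3g (adjusted p = 0.409), and edgeR called 0 of 7 members and 0% of all genes, with 0 members at an unadjusted p under 0.05 and 0 called by DESeq2. limma-voom with quality weights, which weighs down libraries that stand apart, called Reg3g alone (3.56, adjusted p = 0.0446) in a fit where 6.69% of all genes were called. Without WT_Half replicate 6, edgeR gave 3.99 for Reg3g (adjusted p = 0.352) and 3.83 for Reg3b (adjusted p = 0.352). Over all alternatives the difference ran from 1.82 to 3.99 for Reg3g and from 0.84 to 3.83 for Reg3b. In edgeR the rise seen in KI was therefore not shown to differ from the change in WT.

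**Figure D2:**
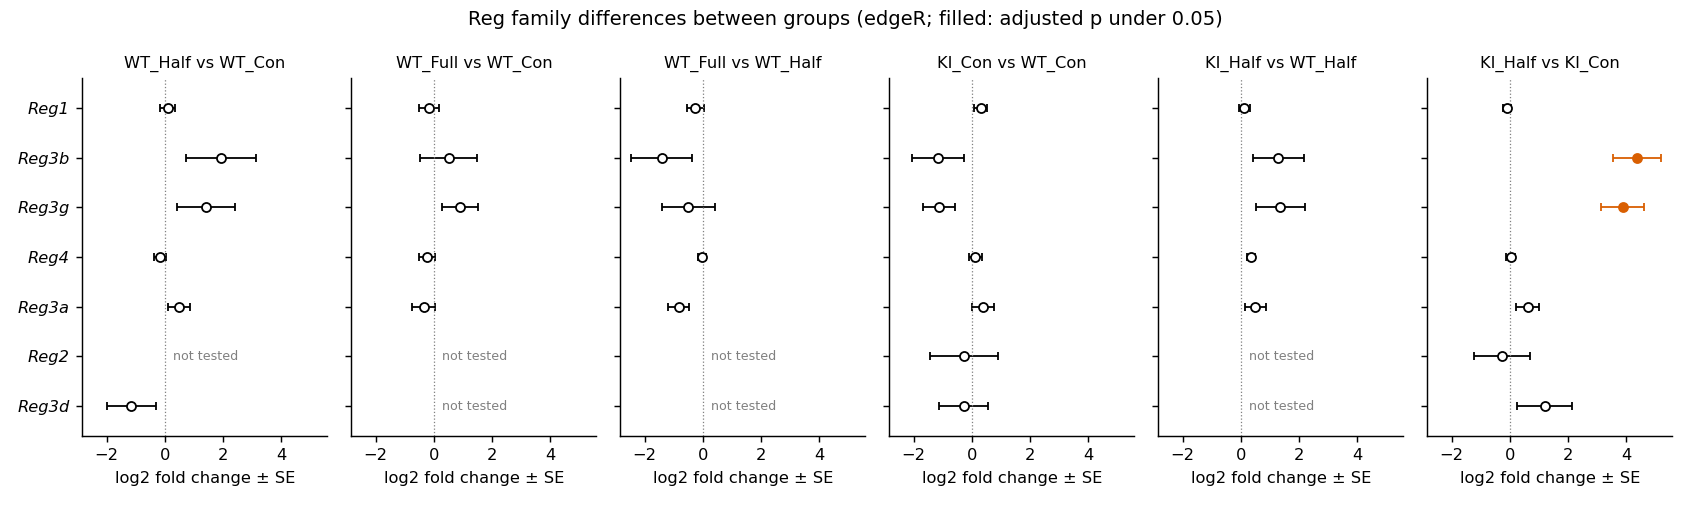
log2 fold change with its SE (x axis) of each Reg gene (y axis) in the 6 comparisons between groups, from edgeR; filled orange points have an adjusted p under 0.05. Reg3b (4.38) and Reg3g (3.88) in KI_Half against KI_Con are the filled points, and Reg2 or Reg3d are not tested where too few reads remained.

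Reg3b and Reg3g also varied together over the 25 libraries, a relation that was not computed within groups. Their ranks over the 25 libraries had a Spearman correlation of 0.91, given as a description since the libraries share groups and depth scaling. Within groups, the pooled SD of log2(CPM + 0.5) was 1.75 for Reg3b and 1.37 for Reg3g, higher than that of 99.7% and 99.2% of the 14961 genes with a mean of at least 1 CPM, whose median was 0.311. Per kb of the principal transcript (783 bases for Reg3b, 771 for Reg3g), Reg3b exceeded Reg3g in 19 of the 25 libraries, and the ratio ran from 0.343 in WT_Con replicate 1 to 3.18, with a median of 1.54. It was above 1 in 5 of 6 KI_Half libraries (0.795 to 2.55) and in all 4 KI_Con libraries (1.05 to 1.53), so the ranges of the 2 groups overlapped.

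**Figure D3:**
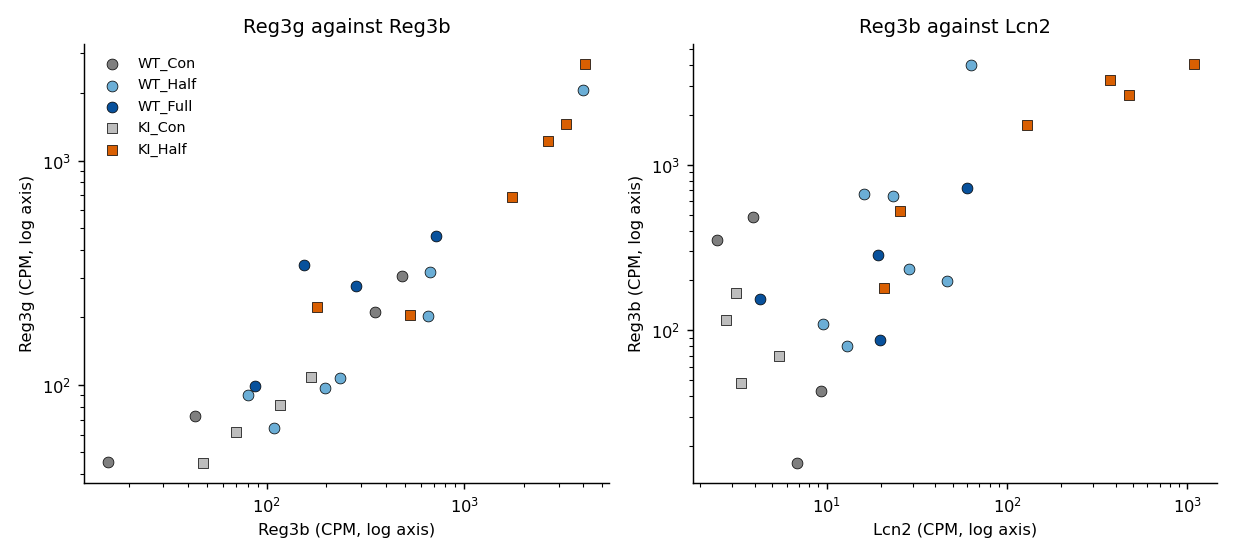
Left, Reg3g against Reg3b; right, Reg3b against Lcn2, an antimicrobial protein gene; each point is a library and both axes are log-scaled CPM. The points of Reg3g and Reg3b lie along 1 line through all groups (Spearman 0.91), while Reg3b and Lcn2 are looser (0.70).

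Reg1, first known as a secreted protein of the pancreas, held the most reads of the family in most libraries. It was 2116, 1595, 1146 and 2345 CPM in WT_Con, 2303, 2640, 2262 and 1786 CPM in KI_Con, and 1322, 2293, 907 and 1926 CPM in WT_Full. WT_Half ran from 1043 to 2573 CPM (median 2163) and KI_Half from 1753 to 2481 CPM (median 2155). All groups overlapped and the extremes differed 2.91-fold. Its pooled SD within groups was 0.406 on the log2 scale, above that of 69.8% of genes, and by its mean Reg1 ranked 45 of the 17007 genes. No comparison called it: the estimates ran from −0.25 ± 0.28 (WT_Full against WT_Half, adjusted p = 1.00) to 0.31 ± 0.23 on the log2 scale (KI_Con against WT_Con, adjusted p = 0.634, edgeR).

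The balance of the family followed from these 3 genes. All 7 together took 0.173% to 0.934% of the counts of a library, with a median of 0.244%, the highest share being in KI_Half replicate 3. Reg1 made up 24.6% of Reg counts in that library and up to 90.7% in KI_Con replicate 3 (median 76.5%). Reg3b made up 0.67% to 45.7% and Reg3g 1.8% to 29.4%. Per kb of transcript, the KI_Con order was Reg1 (2486 ± 389 CPM per kb, SD, n = 4), Reg4 (130 ± 2.04), Reg3b (128 ± 68.1), Reg3g (96.1 ± 35.3) and Reg3a (10.1 ± 3.86), where Reg4, Reg3b and Reg3g lay within their spread. In KI_Half it was Reg3b (2646 ± 1963, n = 6), Reg1 (2320 ± 321), Reg3g (1405 ± 1221), Reg4 (132 ± 32.2) and Reg3a (15.3 ± 7.78), and the first 3 lay within their spread. Over all annotated exons, longer for Reg3g (2114 bases) and Reg3b (1142 bases), the KI_Half means were 1814 for Reg3b and 513 for Reg3g.

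**Figure D4:**
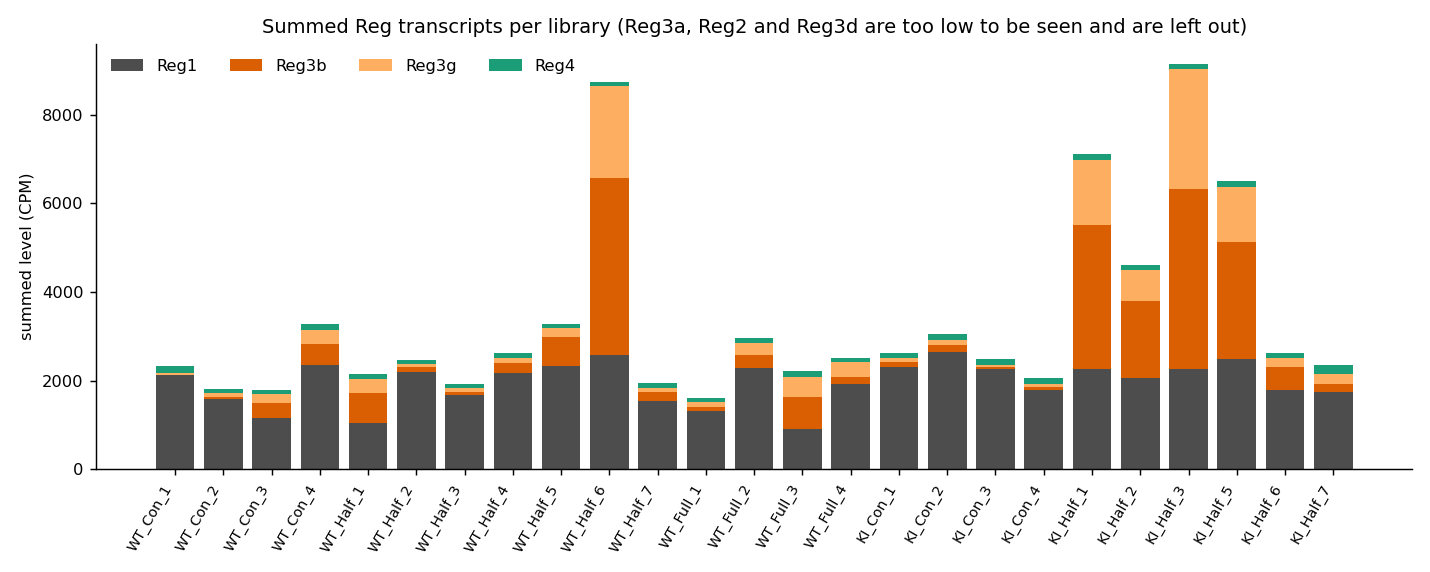
Summed CPM (y axis) of Reg1, Reg3b, Reg3g and Reg4 in each library (x axis). The height is set by Reg1 in most libraries, and by Reg3b and Reg3g in KI_Half replicates 1, 2, 3 and 5 and in WT_Half replicate 6.

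Reg4, known from secretory cells of the gut, was 161, 101, 68.6 and 152 CPM in WT_Con and within 132 to 136 CPM in all 4 KI_Con libraries. WT_Full held 98.7, 102, 127 and 83.7 CPM. WT_Half ran from 90.2 to 126 CPM (median 105) and KI_Half from 111 to 198 CPM (median 124), with replicate 7 at the top. The 4 KI_Con libraries (132 CPM or more) lay slightly above all WT_Half (at most 126 CPM) and WT_Full libraries (at most 127 CPM). These pairs differ in both genotype and diet and were not tested. How many of all genes separate in this way was not counted, so this gap has no background to be read against. For Reg4, the other pairs of groups overlapped. Its spread within groups (pooled SD of 0.306 on the log2 scale) was near the median of all genes (0.311). The 19 enteroendocrine markers in the tables summed to 659 to 918 CPM in KI_Half and 621 to 737 CPM in KI_Con, and 6 of 19 rose with none lower, beside 20.0% of all genes called as higher. Their part in the level of Reg4 was not tested.

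Reg3a was low, at 2.94 to 21.5 CPM. It was 5.32, 8.27, 2.94 and 9.02 CPM in WT_Con, 8.69, 12.5, 7.08 and 4.98 CPM in KI_Con and 3.83, 5.52, 3.19 and 7.5 CPM in WT_Full, with WT_Half at 3.65 to 16.2 (median 9.41) and KI_Half at 4.66 to 21.5 (median 12.8). All groups overlapped, and WT_Half replicate 6 and KI_Half replicates 3 and 5, which were high for Reg3b, were also the highest here. Over the 25 libraries its Spearman correlation was 0.70 with Reg1 and 0.50 with Reg3b.

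Reg2 and Reg3d, known from pancreas and gut, were near the limit of detection, with 342 and 349 reads in all 25 libraries together and 0 reads in 4 libraries each. The tables hold only genes above 20 counts in at least 5 libraries, a limit that Reg2 met in exactly 5 and Reg3d in 7, so they passed only through the libraries in which they were high. Reg2 reached 1.56 CPM in KI_Half replicate 3 and 1.45 CPM in WT_Con replicate 3. Reg3d was at 1.69, 0.792, 1.39 and 1.31 CPM in KI_Half replicates 1, 2, 3 and 5 and at 0.0692 and 0.146 CPM in replicates 6 and 7, the same split as for Reg3b, and at most 0.961 CPM elsewhere. Its log2 fold change ran from −1.15 ± 0.85 (WT_Half against WT_Con, adjusted p = 0.449) to 1.20 ± 0.94 (KI_Half against KI_Con) in edgeR.

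Because acinar cells of the pancreas also make Reg1, Reg2 and Reg3 members, each was set beside the acinar transcript Ctrb1, which encodes chymotrypsinogen. Ctrb1 was 477, 1.03, 404 and 52 CPM in WT_Con and 993, 317, 1.93 and 1.66 CPM in KI_Con, but at most 8.76 CPM in all 17 ethanol libraries. Of the 21 acinar markers in the tables, 20 fell and 1 (Pnliprp2) rose in KI_Half against KI_Con in edgeR, where 37.9% of all genes were called. In limma-voom, whose quality weights count libraries that stand apart for less, 2 fell and 1 rose. Their summed level was 196 to 6866 CPM in KI_Con and 132 to 222 CPM in KI_Half, and 127 to 3447 CPM in WT_Con against 157 to 252 CPM in WT_Half and 129 to 187 CPM in WT_Full.

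Among the control libraries, the abundant Reg genes overlapped between those above and those below 10 CPM of Ctrb1. Reg1 ran from 1146 to 2640 CPM in the 5 control libraries with more than 10 CPM of Ctrb1, from 1595 to 2262 CPM in the 3 with less, and from 907 to 2573 CPM in the ethanol libraries. Reg3b reached 481 CPM in the 5 and 69.8 CPM in the 3 control libraries, and Reg3g 307 and 72.9 CPM, with overlap in both. The ethanol libraries held 80.5 to 4073 CPM of Reg3b, all above those 3 control libraries (43.1 to 69.8 CPM) but overlapping the 5. How many of all genes separate in this way was not counted. For Reg3g, the ethanol libraries (64.4 to 2694 CPM) overlapped both sets of controls. Reg3d was 0.294 to 0.961 CPM in the 5 and at most 0.302 CPM in the 3. Reg2 was 1.08 CPM or more in 4 of the 5 and at most 0.187 CPM in the 3. The fifth library, WT_Con replicate 1, held 0 CPM of Reg2 beside 477 CPM of Ctrb1. Within the 17 ethanol libraries, Pearson's r of a member with Ctrb1 on the log2(CPM + 0.5) scale ran from −0.28 (Reg2) to 0.38 (Reg4) and none of these 7 passed adjustment over the 14 relations computed (permutation test, two-sided, adjusted p of 0.605 to 0.999). Spearman's rho was largest for Reg2 (−0.50, permutation p = 0.0443, adjusted p = 0.31). Without the 2 libraries farthest from the median of Ctrb1, r of Reg2 was −0.10 and that of Reg4 0.28. The other 7 relations were over the 8 control libraries, where Reg3d held only 0 to 28 reads per library. There Reg3d passed on r (two-sided exact permutation test, adjusted p = 0.0288, and 0.0191 to 0.0247 in 3 alternatives). On rho it did not pass (same test, adjusted p = 0.15, and 0.0312 to 0.15 in these alternatives). From the highest Ctrb1 to the lowest among the 5 control libraries above 10 CPM, Reg3d was 0.961, 0.66, 0.633, 0.525 and 0.294 CPM, and it was 0.0935, 0 and 0.302 CPM in the other 3. These libraries form clusters of 5 and 3, so no pooled r is given and the relation was not tested within a cluster, each having fewer than 6 libraries. The other 6 members did not pass there (adjusted p of 0.605 to 0.999 for r).

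The rise of Reg3b and Reg3g in KI_Half was also estimated with fewer acinar-rich libraries and with covariates. With KI_Con reduced to its 2 libraries under 10 CPM of Ctrb1, the log2 fold change was 5.14 for Reg3b (adjusted p = 0.029) and 4.35 for Reg3g (adjusted p = 0.0345, edgeR). With Ctrb1 as a covariate over 25 libraries it was 4.81 and 4.03 (adjusted p = 0.0337 and 0.0287). High Ctrb1 occurred in control libraries alone, so its level and the diet cannot be fully told apart. With the Brunner gland level as a covariate it was 4.22 and 3.69 (adjusted p = 0.00926 and 0.00604). The summed Brunner gland level was 163 to 11254 CPM in KI_Con and 182 to 7488 CPM in KI_Half, and WT_Half replicate 6 had the highest of its group (17443 CPM). The 19 Paneth markers summed to 328 to 714 CPM in KI_Con and 242 to 1256 CPM in KI_Half. Of 18 tested, Mmp7, Pla2g2a and Defa22 rose and Lyz2 fell, 4 calls beside 37.9% of all genes called, and the part of Paneth cells in the level of Reg3b and Reg3g was not tested.

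**Figure D5:**
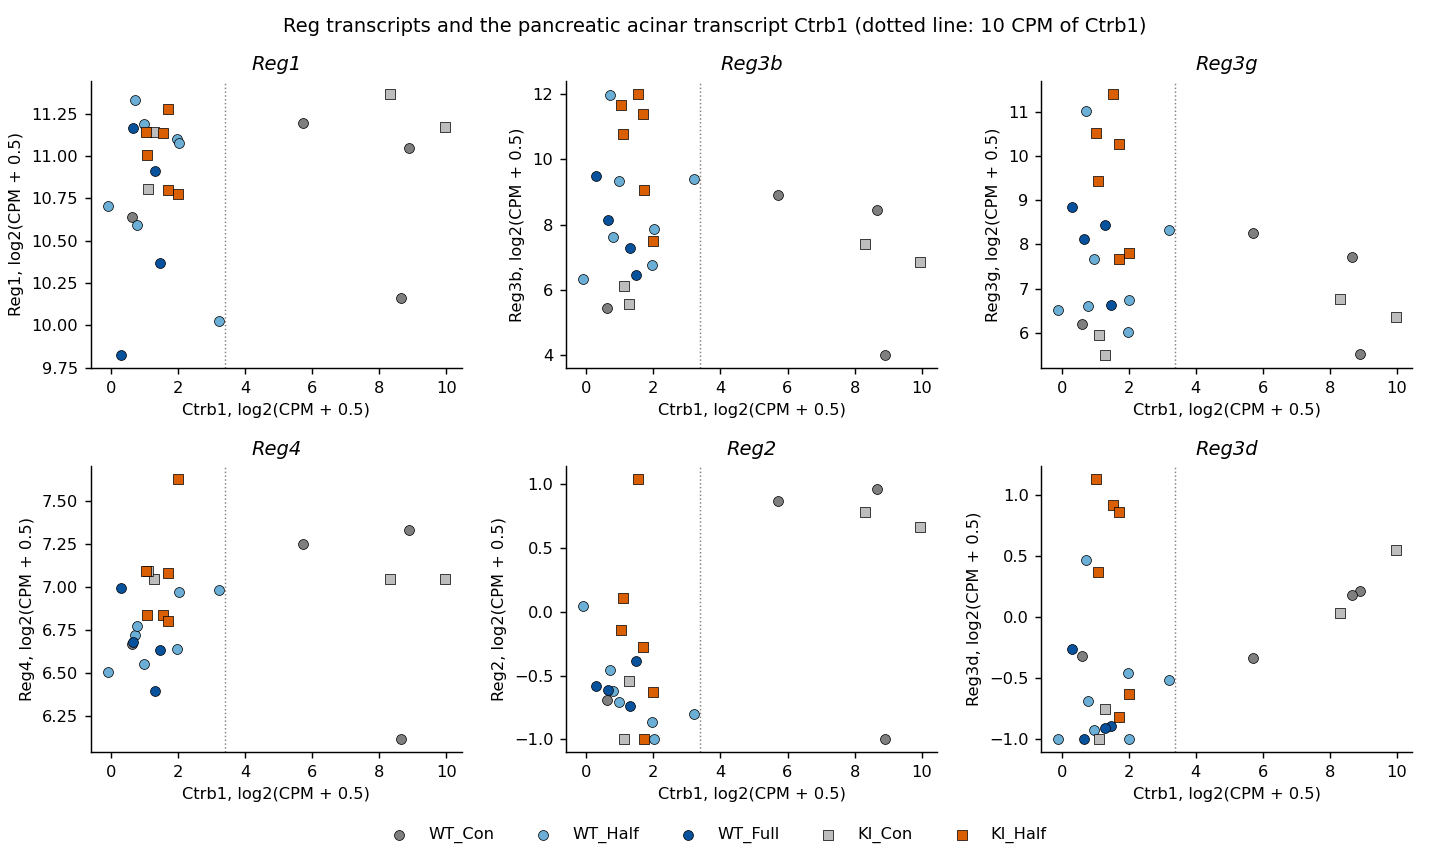
Level of 6 Reg transcripts (y axis) against the acinar transcript Ctrb1 (x axis), both as log2(CPM + 0.5), in 25 libraries; the dotted line marks 10 CPM of Ctrb1. All 5 libraries to the right of it are controls, and Reg1 there spans 1146 to 2640 CPM, beside 907 to 2573 CPM in the ethanol libraries.

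Known inducers of Reg3 transcription and the proposed Reg receptor were followed as a list of 36 genes, of which 30 were tested. In KI_Half against KI_Con, 8 rose and 4 fell, with a median of 0.23 against 0.00 for all genes (37.9% called among all genes). Those higher included the cytokines Il33 (4.45 ± 0.89), Il11 (3.33 ± 0.58), Il1b and Tnf, the receptor Tlr2 (1.06 ± 0.32) and Socs3 (2.28 ± 0.72), a feedback inhibitor that STAT3 induces. Those lower were Il22ra2 (−1.88), which encodes a decoy receptor for interleukin 22, the kinases Jak2 (−0.64) and Tyk2 (−0.55), and the adaptor Ticam1 (−0.30). Il22ra1, the epithelial receptor chain for interleukin 22, was 31.8 ± 3.95 CPM (SD, n = 4) in KI_Con and 33.7 ± 7.75 CPM (n = 6) in KI_Half. Stat3 was 180 ± 15.8 and 234 ± 71.6 CPM (adjusted p = 0.153), and Extl3, the proposed receptor of Reg proteins, 32.3 ± 3.24 and 32.5 ± 4.47 CPM (adjusted p = 0.902). None of these 3 passed the test.

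In WT_Half against WT_Con, edgeR called 1 gene of this list, Il11 (3.26), beside 1.47% of all genes, while DESeq2 called 3 higher and 1 lower. In WT_Full against WT_Con edgeR called 0 of 30, with 5 at an unadjusted p under 0.05 and 2 called by DESeq2 and by limma-voom. In KI_Half against WT_Half it called 0 of 29, with 11 at an unadjusted p under 0.05 and 1 called by either other tool. The genes with the smallest p were Il33 (2.60 ± 0.64, adjusted p = 0.266), Socs3 (1.95 ± 0.55) and Tlr2 (0.75 ± 0.27) in KI_Half against WT_Half, and Il17rc (0.66 ± 0.17, adjusted p = 0.159), Il11 (3.91 ± 1.00) and Cdx2 (0.53 ± 0.18) in WT_Full against WT_Con, all on the log2 scale.

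Most other genes known to respond to interleukin 22 or STAT3 in gut epithelium rose as well. Of 28 tested, 19 rose and 2 (Pigr and Pim1) fell in KI_Half against KI_Con, with a median of 1.91 on the log2 scale. Among all genes, 37.9% were called in this comparison and 20.0% were called as higher. Lcn2, whose protein withholds iron from bacteria, was 2.77, 3.15, 3.34 and 5.45 CPM in KI_Con and 20.8 to 1081 CPM (median 249) in KI_Half, a log2 fold change of 6.58 ± 1.21 (adjusted p = 0.00215). The same 2 libraries, replicates 6 and 7, were lowest for Lcn2 (25.6 and 20.8 CPM) as for Reg3b and Reg3g. Duoxa2 (7.71 ± 1.74) and Nos2 (6.40 ± 1.47), which serve the production of hydrogen peroxide and nitric oxide, also rose, as did Clca4b (2.08), Tgm2 (3.00) and Pla2g2a (2.95). S100a8 (6.28) and S100a9 (5.86), which neutrophils also express, rose together with the neutrophil markers Ly6g (8.43) and Cxcr2 (5.44), while 9 of the 13 immune markers fell. The part of infiltrating cells was not tested.

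In WT_Half against WT_Con, 5 of 28 of these genes rose (Saa3, S100a8, S100a9, Clca4b and Tgm2) and none fell, beside 1.47% of all genes called. In WT_Full against WT_Con, edgeR called 0 of 26, with 8 at an unadjusted p under 0.05, while DESeq2 called 9 and limma-voom 6 as higher. In KI_Half against WT_Half, edgeR called 0 of 28, with 11 at an unadjusted p under 0.05, while DESeq2 called 6 and limma-voom 2 as higher. The smallest p in the former were those of Clca4b (1.52 ± 0.30, adjusted p = 0.127), Tgm2 (1.65 ± 0.36) and Pla2g2a (2.75 ± 0.62), and in the latter those of Nos2 (4.39 ± 0.95, adjusted p = 0.265), Lcn2 (3.61 ± 0.81) and Duoxa2 (4.73 ± 1.15). Of the acinar list, the smallest p were those of Pnliprp1 (−6.00), Cpb1 (−7.49) and Cela2a (−8.36) in WT_Full against WT_Con and of Ctrl (−0.74), Pnlip (−1.41) and Cpa1 (−1.01) in KI_Half against WT_Half, and none passed the test in edgeR. At an unadjusted p under 0.05 stood 18 of 20 acinar genes in the former and 0 of 21 in the latter, and DESeq2 called 18 lower and 1 higher in the former and 0 in the latter, limma-voom 1 higher and 0. In the authors' deposited table, Ctrb1 was −7.27 (adjusted p = 2.41e-06) in WT_Full against WT_Con and −0.23 (adjusted p = 0.943) in KI_Half against WT_Half.

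The members themselves were left out of a search for genes with similar ranks. Among the other 14055 genes, those whose ranks over the 25 libraries were most like those of Reg3g were Tifa (Spearman 0.857), Duox2 (0.855) and Ptk6 (0.855). Duox2, which encodes a hydrogen peroxide producing oxidase of the epithelium, averaged 1.64 CPM in KI_Con and 199 CPM in KI_Half. For Reg3b they were Tars (0.870), Get1 (0.867) and Osbpl7 (0.856), whose levels moved much less (Tars 61.1 CPM in KI_Con and 141 CPM in KI_Half). For Reg3a they were Prss30 (0.811), Gab2 (0.802) and Smad4 (0.779). Outside the family, Reg1 and Reg4 had no close match, the first being Neurl1a (0.627) for Reg1 and Lrrc25 (0.672) for Reg4. The gut hormone gene Cck was also among the first 3 for Reg4 (0.658).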

How the data were processed

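Polyadenylated RNA of mouse duodenum was sequenced in 25 libraries of 5 groups, and samples were grouped by the labels. The authors deposited raw counts per Ensembl gene and their own log2 fold changes with adjusted p-values. Per the submitters' processing notes, FastQC, Trimmomatic, HISAT2 on GRCm38, SAMtools, featureCounts and DESeq2 were used; no version or strand setting is recorded there. The tables hold 17220 lines, and 213 repeated lines were merged to 17007 genes, each above 20 counts in at least 5 libraries. Of these, 16995 were in GENCODE M21 and 15403 had a symbol in the tables. Totals were 24.6 to 44.8 M counts.

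Each pair of groups was fitted with edgeR 4.0.16 (R 4.3.3) over all genes: low counts filtered by filterByExpr, scaling by the trimmed mean of M values, the quasi-likelihood test and Benjamini-Hochberg adjustment at 0.05. The interaction was fitted over 4 groups. The SE is the log2 fold change divided by the square root of F. Levels are CPM scaled over 25 libraries, with 0.5 CPM added before log2. Alternatives were DESeq2 1.42.0, limma 3.58.1 (voom with quality weights), 1 fit of all libraries, other size factors, no filter, a replicate block, Ctrb1 or Brunner gland covariates, and libraries left out. Between 2 groups, the block used only replicate numbers found in both. The fits were tested on simulated data. Relations with Ctrb1 used 100000 permutations over ethanol libraries and all permutations over controls (SciPy 1.17.1). The 17 ethanol and 8 control libraries were taken apart, and no r is given over the controls, which split into clusters of 5 and 3.

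The members and the gene lists were chosen with earlier results of these data known, so the lists are not independent evidence. Beside the members, the text names, for the inducer, target and acinar lists in KI_Half against WT_Half and in WT_Full against WT_Con, the 3 genes with the smallest p. For each member with a mean of at least 1 CPM, it also names the 3 genes outside the family with the most similar ranks. Other genes were named after their values were seen. Comparisons that share a group share its libraries.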

Additional observations from a re-analysis of the deposited data

Results flagged for a closer look

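In each group of 4 to 7 libraries, the gap between the highest or lowest library and its nearest neighbour was set against the range of the group for each of the 7 genes. In 7 of the 35 sets a library stood apart, each time as the highest. The limit used gives about 1 in 20 for independent, normally distributed values. Here CPM were taken without logs and the sets share libraries, so the count of 7 cannot be set against that rate. WT_Half replicate 6 was far above the rest of its group for Reg3b (3992 CPM), Reg3g (2068 CPM) and Reg3d (0.883 CPM). Reg4 stood out in KI_Half replicate 7 (198 CPM), a library that was the lowest of its group for Reg3b. The other 3 concern genes with few reads: Reg2 in WT_Half replicate 3 (0.531 CPM) and KI_Half replicate 3 (1.56 CPM), and Reg3d in WT_Full replicate 3 (0.335 CPM).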

How the results depend on the processing

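The calls of Reg3b and Reg3g in KI_Half against KI_Con held in every alternative, and no other member was called in any alternative except Reg3g in the interaction with limma-voom (1 member, 3.56). Of the alternative fold changes, 50 changed sign, none of them called, and 809 kept their direction and side of the threshold. Without control libraries above 10 CPM of Ctrb1, Reg4 was 0.04 and Reg1 0.03 in WT_Full against WT_Con, Reg4 0.07 in WT_Half against WT_Con, Reg2 2.30 and Reg1 0.05 in KI_Half against KI_Con, Reg3b 0.45 and Reg3a −0.44 in KI_Con against WT_Con, and Reg4 −0.07 in the interaction. In those fits WT_Con kept replicate 2 alone and KI_Con kept replicates 3 and 4. Between 2 groups, the replicate block kept only libraries whose number occurs in both. In the WT comparisons it left out WT_Half replicates 5, 6 and 7. There Reg3g was −0.17 and Reg1 −0.02 in WT_Half against WT_Con, and Reg3g 1.29 and Reg3b 0.32 in WT_Full against WT_Half. Without WT_Half replicate 6 alone, Reg3g was −0.11 and 1.03 in these comparisons. In KI_Half against KI_Con the block left out KI_Half replicates 5, 6 and 7 and KI_Con replicate 4. Reg2 was then 0.02, Reg4 −0.12, Reg3b 4.87 and Reg3g 4.25. The part of the block and that of the libraries left out were not told apart. With DESeq2, Reg3g was −0.10 in WT_Half against WT_Con and 0.93 in WT_Full against WT_Half. With limma-voom, Reg4 was 0.08 and Reg3g 0.59 in WT_Full against WT_Half, and Reg2 0.21 and Reg4 −0.07 in KI_Half against KI_Con. With the Ctrb1 covariate, Reg3d was 0.04 in WT_Half against WT_Con and Reg2 1.24 in KI_Half against KI_Con. With the Brunner gland covariate, Reg3g was 0.50 in WT_Full against WT_Half, and Reg2 0.38, Reg3d 0.27 and Reg3b 0.11 in KI_Con against WT_Con. The cause was not tested. Leaving out 1 library gave −0.38 to 0.03 (Reg1) and −0.34 to 1.22 (Reg3b) in WT_Full against WT_Con, −0.37 to 0.01 (Reg4), −0.11 to 1.94 (Reg3g) and −0.06 to 0.26 (Reg1) in WT_Half against WT_Con, −0.17 to 0.06 (Reg4) and −0.80 to 1.03 (Reg3g) in WT_Full against WT_Half, −1.04 to 0.29 (Reg2) and −0.12 to 0.09 (Reg4) in KI_Half against KI_Con, −0.82 to 0.34 (Reg2), −0.06 to 0.30 (Reg4) and −1.16 to 0.12 (Reg3d) in KI_Con against WT_Con, and −0.10 to 0.38 (Reg3a) in the interaction. Pearson's r with Ctrb1 became 0.29 (Reg1), −0.29 (Reg3b) and −0.09 (Reg3d) without the 2 farthest libraries, −0.03 (Reg3b) and −0.07 (Reg3d) with a pseudocount of 5 CPM, and −0.01 (Reg3d) without the scaling factors. Deviations of same-numbered libraries from their group means had r of −0.383 to 0.488. All were positive in KI_Half against KI_Con (0.031 to 0.259) and in KI_Con against WT_Con (0.008 to 0.267). With so few libraries, these values cannot decide if the numbers pair them. The block changed no call of a member. Over all genes, DESeq2, limma-voom, the fit of all libraries and the block called 936, 1410, 1289 and 0 genes in WT_Full against WT_Con (1 in the pairwise edgeR fit) and 1353, 1232, 720 and 0 in WT_Half against WT_Con (249). The first 3 called 20, 2 and 0 in WT_Full against WT_Half, 172, 884 and 2 in KI_Half against WT_Half, 11, 2 and 1 in KI_Con against WT_Con and 36, 1138 and 0 in the interaction, each 0 in the pairwise fit. Reg2 and Reg3d had 342 and 349 reads in all.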

Other observations

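Other epithelial markers moved in both directions in KI_Half against KI_Con (edgeR, 37.9% of all genes called). Of 18 enterocyte markers, 2 rose (Cdh1 and Cdx1) and 8 fell, and their summed level was 24536 to 42906 CPM in KI_Half and 39987 to 55684 CPM in KI_Con. Of 14 goblet markers, Spink4, which encodes a secreted protease inhibitor, rose by 0.83 on the log2 scale and 5 fell. Of 13 crypt and stem cell markers, 5 rose and 2 (Lgr5 and Rnf43) fell. Of 8 Brunner gland markers, Gkn1 (−3.50) and Gkn2 (−4.16), gastrokines of the stomach lining, fell.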
